A study of Mus musculus with 16 samples.

Results

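The response described here is the average effect of coronary ligation on ventricular RNA over both mouse strains of the study. It was estimated from 8 ligated hearts against 8 control hearts with strain as an additive term, so it uses all 16 libraries of the series, and it was tested in the 13504 of 13842 genes of the count table that passed a filter on low counts. The 4 groups of 4 hearts were DBA/2J mice with ligation (DBA ligated), untreated DBA/2J mice (DBA control), C57Bl6/N mice with ligation (C57 ligated) and untreated C57Bl6/N mice (C57 control). All mice were females of inbred strains without a named transgene, 3 months old, and ligated hearts were taken 2 weeks after permanent ligation. The strain label is C57Bl6N for all 8 C57 mice, while the sample descriptions write C57Bl-6N for the ligated and C57Bl-6NCR for the control mice. The controls had no sham operation, so an effect of the infarct and an effect of the surgery cannot be told apart. Ligated tissue is called remote in the sample descriptions, which places it away from the infarct. The dissected regions are given as septum plus right ventricles in the design text and as septum plus left ventricle in the sample labels, and which of them holds cannot be told from these sources.

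A permanent ligation starves the myocardium downstream of the tie, and the surviving wall takes over its work under raised stress. In such remote myocardium, cardiomyocytes are known to return to natriuretic peptides and other genes of the fetal heart and to lower their fatty acid oxidation, while fibroblasts deposit collagen between the muscle fibres. PolyA RNA of whole tissue was sequenced here, so for every gene fewer cells of a type and less RNA per cell cannot be told apart.

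Library totals ranged between 13724074 and 22010830 counts in ligated hearts and between 4922411 and 17013017 counts in control hearts. The 3 shallowest were control libraries, DBA control 4 with 4922411, DBA control 3 with 7581515 and C57 control 1 with 8217335 counts, and they are called the shallow libraries. Libraries of a group are listed in the order 1 to 4, and those of DBA ligated hearts in the order 1, S40, S41 and S42, since the replicate numbers of the last 3 conflict between the labels and the table. Levels are given as CPM, counts-per-million of the library total after scaling by the trimmed mean of M values. A gene is called where its edgeR quasi-likelihood test gave p under 0.05 after Benjamini-Hochberg adjustment over the 13504 genes, and rose or fell is written of called genes only. Fold changes are on the log2 scale, ligated over control, with their standard error (SE). The first principal component held 43.2% of the variance and separated the strains. The second held 28.3%, with scores between 5.10 and 30.0 in ligated hearts and between -53.8 and 10.3 in control hearts, the lowest being DBA control 4. Checked against markers of the labelled tissue, Myl2, the ventricular regulatory light chain, lay between 5600.1 and 14101 CPM in the 16 libraries. Myl7, its atrial counterpart, lay between 0.659 and 44.8 CPM.

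**Figure D1:**
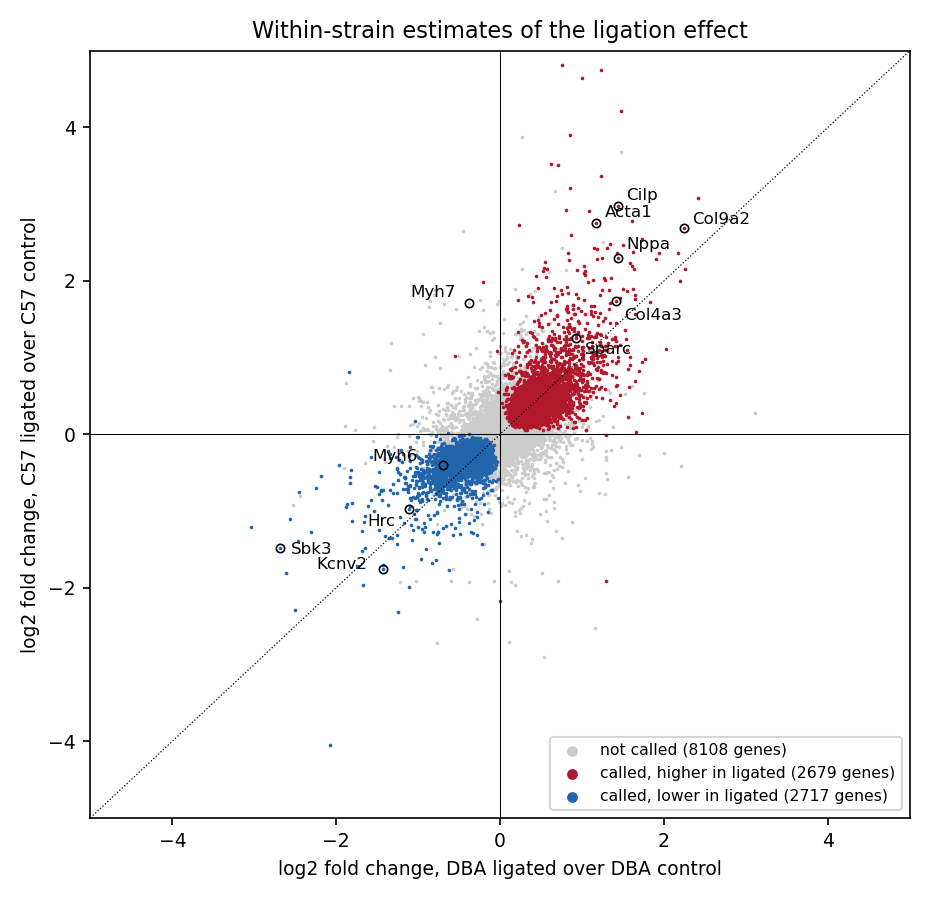
Each point is 1 of the 13504 genes, with the log2 fold change in DBA hearts (horizontal axis) and in C57 hearts (vertical axis), and colour shows the call of the average effect. The called genes fill the upper right and lower left quadrants, and 3 genes lie outside the axes.

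The average ligation effect was called in 5396 genes, which is 40% of the genes tested. Of these, 2679 rose (19.8% of the genes tested) and 2717 fell (20.1%), and the median log2 fold change over all genes was 0.02. Without adjustment 6649 genes (49.2%) had p under 0.05. Only a small part of the calls reached a 2-fold change, with 245 genes higher (1.81%) and 80 genes lower (0.592%). In 761 genes (5.64%) all 4 ligated libraries lay above all 4 control libraries in each strain, and in 839 genes (6.21%) all 4 lay below, while 8 genes (0.0592%) were apart in opposite directions. Across the strains, 263 genes (1.95%) had all 8 ligated libraries above all 8 control libraries and 311 (2.3%) had all 8 below.

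The direction was the same in both strains for 5385 of the 5396 called genes (99.8%), against 77.9% of all genes tested, but a call needs an average that the strains share, so this share is a description. Tested within each strain, 1092 of the called genes were also called in DBA hearts and in C57 hearts, 2024 in DBA but not in C57 hearts, 597 in C57 but not in DBA hearts and 1683 in neither strain alone. The median size of the log2 fold change over the called genes was 0.45 in DBA hearts and 0.36 in C57 hearts. Within DBA hearts 3360 genes (24.9%) were called, and within C57 hearts 1796 (13.3%). These within-strain counts moved with single libraries, to 1318 in DBA hearts without DBA control 3 and to 618 in C57 hearts without C57 ligated 1. In DBA hearts the count was 5091 without DBA control 2, 2235 without DBA ligated 1, 1811 without S41 and 1793 without S42. In C57 hearts it was 2854 without DBA control 4, whose spread enters the shared model, 754 without C57 ligated 3, 931 without C57 control 1 and 886 without C57 control 2. No gene was called for a difference of the ligation effect between the strains (0 of 13504, 0%), while 782 had an unadjusted p under 0.05 by edgeR and 17 were called by DESeq2.

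The size of the effect moved with the base composition of the genes. Called genes that rose had a median GC content of 53.5%, those that fell 45.8%, and all genes 49.7%, and over all genes GC content and log2 fold change had a rank correlation of 0.40 (a description, since all genes share the libraries). The control libraries also differed among themselves along GC content, with rank correlations of 0.45 and 0.50 between GC content and the deviation from the group mean in DBA controls 1 and 2, and of -0.31 and -0.47 in DBA controls 3 and 4. With a GC correction in the model 2353 genes rose and 2579 fell, and 3926 of the 5396 calls (72.8%) held. Without the 3 shallow control libraries 2362 rose and 2226 fell, and 72.5% of the calls held, and with both changes at once 60.2% held. Scaling by library totals alone moved the median of all genes by 0.14, and 77.7% of its calls were then higher, against 49.6% with the main scaling, so every direction below is relative to the main scaling. Under all 29 alternative settings tried, 620 genes stayed called higher and 428 stayed called lower.

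Upstream stretches are shown for 3 cardiomyocyte genes, Nppa and Acta1, which rose, and Myh6, which fell. They are up to 250 bases upstream of the RefSeq start, outside annotated exons, from RefSeq on GRCm38.p6, written 5′ to 3′ on the gene's strand. The Myh6 stretch holds 216 bases, because those nearest its start run into an annotated exon and were left out. Motifs in the bases left out were not searched for Myh6. Nppa is read from chr4:148000472-148000721 (plus strand), Acta1 from chr8:123894776-123895025 (minus strand) and Myh6 from chr14:54966642-54966857 (minus strand).
Nppa: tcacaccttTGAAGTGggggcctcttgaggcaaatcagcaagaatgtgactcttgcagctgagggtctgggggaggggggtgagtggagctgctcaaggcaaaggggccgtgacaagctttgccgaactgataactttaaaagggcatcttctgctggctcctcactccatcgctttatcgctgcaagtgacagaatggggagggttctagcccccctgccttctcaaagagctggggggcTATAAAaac
Acta1: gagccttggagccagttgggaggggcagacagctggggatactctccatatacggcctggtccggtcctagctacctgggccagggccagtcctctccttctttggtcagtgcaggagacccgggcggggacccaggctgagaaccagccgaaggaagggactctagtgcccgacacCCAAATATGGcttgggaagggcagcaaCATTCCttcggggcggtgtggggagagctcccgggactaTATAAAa
Myh6: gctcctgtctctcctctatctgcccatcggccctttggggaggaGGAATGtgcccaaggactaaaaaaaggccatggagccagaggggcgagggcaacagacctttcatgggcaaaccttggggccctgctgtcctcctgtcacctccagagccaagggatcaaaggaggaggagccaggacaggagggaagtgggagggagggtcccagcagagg
Capitals mark matches, on either strand, to TATAAA (the TATA box), CATTCC (the core of the M-CAT element that TEAD factors bind), TNAAGTG (the core bound by Nkx2-5) or the CArG box that serum response factor binds. AGATAA and the MEF2 box were searched as well and had no match in these windows, and no 2 matches overlapped. Acta1 held the CArG box, CATTCC and TATAAA, Nppa held TNAAGTG and TATAAA, and Myh6 held CATTCC on the opposite strand. Among 32851 RefSeq windows of 250 bases, 12.4% held TATAAA, 12.6% CATTCC, 10.1% TNAAGTG, 9.99% AGATAA, 2.92% a MEF2 box and 1.47% a CArG box. A match is a description of the letters and shows no binding.

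Of 19 tested genes of the loaded and the fetal heart, 10 rose (52.6%, against 19.8% of all genes), 1 fell and 8 were not called. Nppa, which encodes atrial natriuretic peptide, had 785, 986, 1096 and 1028 CPM in the DBA ligated hearts and 244, 365, 247 and 581 CPM in the DBA controls. In C57 mice Nppa had 863, 469, 748 and 507 CPM in ligated hearts and 102, 150.4, 128 and 142 CPM in controls. The groups did not overlap within either strain, although the highest DBA control exceeded the 2 lowest C57 ligated hearts. The average log2 fold change of Nppa was 1.87 (SE 0.20, edgeR adjusted p = 2.41e-05). Nppb, which encodes B-type natriuretic peptide, had 185, 192, 111 and 156 CPM in DBA ligated hearts and 31.1, 110.4, 46.7 and 84.6 CPM in DBA controls. Nppb had 251, 223, 197 and 309 CPM in C57 ligated hearts and 136, 162, 91.7 and 96.2 CPM in C57 controls. The Nppb groups again did not overlap within a strain, although in DBA mice the lowest ligated heart (111 CPM) was barely above the highest control (110.4 CPM), and the average log2 fold change was 1.13 (SE 0.21, edgeR adjusted p = 6.41e-04).

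Acta1, the skeletal alpha-actin that the fetal heart uses, was among the 12 largest increases by size. Genes were ranked by size or by smallest p only where the groups of 4 did not overlap within either strain. That separation is thus a condition of the ranking and no result. It had 3467, 3176, 3215 and 4048 CPM in DBA ligated hearts and 2239, 1972, 958 and 986 CPM in DBA controls. In C57 hearts Acta1 had 1948, 789, 1701 and 775 CPM after ligation and 184, 233, 179 and 178 CPM in controls. All ligated libraries were above the controls of their own strain, C57 ligated hearts 1 and 3 stood above 2 and 4, and the average log2 fold change was 1.96 (SE 0.29, edgeR adjusted p = 1.42e-04). Ankrd1, a stretch-responsive repeat protein of the I-band, rose (log2 fold change 0.94, SE 0.16), with an overlap in DBA hearts, where DBA control 4 had 3711 CPM and DBA ligated 1 had 3407 CPM. Gdf15, a stress-induced cytokine of the TGF-beta family, rose (log2 fold change 1.89, SE 0.28) at low levels, between 0.828 and 3.95 CPM in ligated and between 0.268 and 1.80 CPM in control hearts. The median log2 fold change of the 19 genes was 0.45 against 0.02 over all genes. The member that fell was Cryab, the small heat shock protein alpha-B-crystallin (log2 fold change -0.34, SE 0.08), whose exons overlap those of Hspb2 on the opposite strand over 30.9% of their length, and it was at -0.20 under library totals.

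Myh7, the slow myosin heavy chain that rodent hearts use before birth, was not called (log2 fold change 0.66, SE 0.33, edgeR adjusted p = 0.120). It had 1968, 2118, 1859 and 2060.2 CPM in DBA ligated hearts and 2217, 1853, 3019 and 3347 CPM in DBA controls, which overlapped. In C57 mice it had 2759.8, 969, 959.8 and 915 CPM in ligated hearts and 341, 402, 501 and 468 CPM in controls, which did not overlap. The within-strain log2 fold changes were -0.38 in DBA hearts and 1.71 in C57 hearts, with edgeR adjusted p of 0.331 and 0.00243. Without C57 ligated 1 the average was 0.34. The test of the difference between strains gave an edgeR adjusted p of 0.387. Exons of Myh7 overlap a noncoding gene on the opposite strand, Mhrt, over 7.65% of their length.

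**Figure D2:**
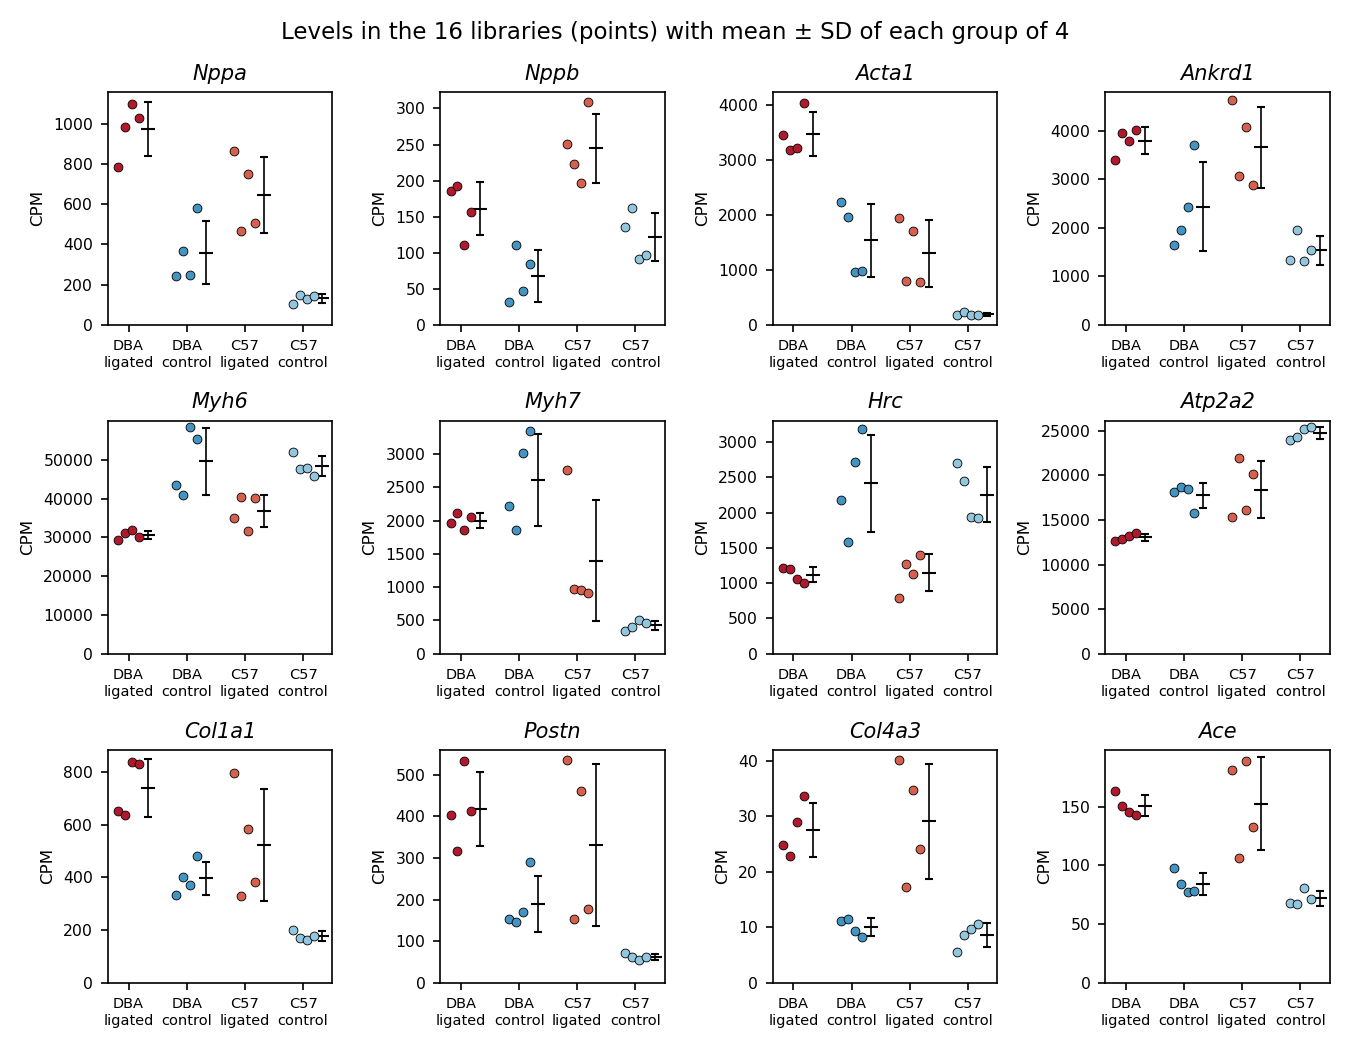
Levels (CPM, linear axes starting at 0) of 12 named genes in the 16 libraries, with the mean and SD of each group of 4 beside its points. The 4 ligated libraries lie beyond the 4 controls within each strain for every gene shown except Ankrd1 and Myh7 in DBA hearts.

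Of 22 tested contractile genes of the adult heart, 11 fell, 1 rose and 10 were not called. Myh6, the fast alpha-myosin heavy chain of the adult mouse heart, lay lower in all 8 ligated hearts than in all 8 controls. Its lowest, median and highest levels were 29287, 31752 and 40331 CPM in ligated hearts and 40812, 47860.4 and 58518 CPM in control hearts, a log2 fold change of -0.55 (SE 0.09, edgeR adjusted p = 2.46e-04). Myl2 fell (log2 fold change -0.63, SE 0.08) on average and Tnni3, the cardiac troponin I (-0.65, SE 0.10). The median log2 fold change of the 22 genes was -0.24, and with library totals 6 fell. The member that rose was Mybpc3, cardiac myosin-binding protein C (log2 fold change 0.40, SE 0.08), at 0.19 with the GC correction. Tnnt2, cardiac troponin T, and Lmod2, an actin nucleator of thin filaments, also fell, with log2 fold changes of -0.71 and -0.73. Titin (Ttn) was at a log2 fold change of -0.30 and was not called.

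Calcium handling genes fell in 12 of 17 cases, 1 rose, and their median was -0.37. Hrc, the histidine-rich calcium-binding protein of the sarcoplasmic reticulum, had 1215, 1207, 1058 and 1008 CPM in DBA ligated hearts and 2187, 1580.1, 2717 and 3179.8 CPM in DBA controls. Hrc had 790.2, 1270.3, 1136 and 1395 CPM in C57 ligated hearts and 2709, 2449.9, 1942 and 1921 CPM in C57 controls. Every ligated heart was below every control heart of both strains, and the average log2 fold change was -1.04 (SE 0.13, edgeR adjusted p = 6.31e-05). Pln, the inhibitor phospholamban, fell (log2 fold change -0.56, SE 0.08) and Atp2a2, the calcium pump SERCA2 that phospholamban inhibits (-0.44, SE 0.07). With the GC correction Pln was at a log2 fold change of -0.34. Trdn (triadin), Ryr2 (the release channel) and Slc8a1 (the sodium-calcium exchanger) fell, with log2 fold changes of -0.88, -0.34 and -0.26. The member that rose was Itpr1, an inositol trisphosphate receptor (log2 fold change 0.20, SE 0.07), whose call ended when any of 7 single libraries or the 3 shallow ones were left out.

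Of 21 ion channel genes 9 fell (42.9%, against 20.1% of all genes) and 3 rose (14.3%, against 19.8%), with a median of -0.16. With the GC correction and without the shallow libraries 14 fell, while 5 rose without DBA control 2. Kcnv2, a silent subunit that modifies potassium channels, was lower in every ligated heart than in every control heart. Its lowest, median and highest levels were 2.08, 5.02 and 8.24 CPM in ligated hearts and 12.1, 13.8 and 18.7 CPM in control hearts, a log2 fold change of -1.59 (SE 0.21, edgeR adjusted p = 7.54e-05). Kcnj5 and Kcnj3, which form the acetylcholine-gated potassium channel, fell, with log2 fold changes of -0.53 (SE 0.06) and -1.03 (SE 0.13). At the intercalated disc, the junction between cardiomyocytes, 6 of 16 genes fell (37.5%, against 20.1% of all genes) and 5 rose (31.2%, against 19.8%). Their median of -0.09 was 0.05 under library totals. Ctnna3 (alpha-T-catenin) and Cdh2 (N-cadherin) fell, with log2 fold changes of -0.66 (SE 0.10) and -0.60 (SE 0.11), and Ctnnb1 (beta-catenin) rose (0.30, SE 0.06). Without the shallow libraries Cdh2 was at a log2 fold change of -0.38.

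Among 22 genes of neurohormone signalling 7 fell (31.8%, against 20.1% of all genes) and 3 rose (13.6%, against 19.8%). Their median was 0.04, or -0.15 with the GC correction. Ace, the enzyme that forms angiotensin II, had 163, 151, 146 and 143 CPM in DBA ligated hearts and 97.6, 83.7, 77.4 and 78.1 CPM in DBA controls. Ace had 181, 106, 189 and 133 CPM in C57 ligated hearts and 68.3, 66.9, 80.6 and 71.4 CPM in C57 controls. All 8 ligated hearts exceeded all 8 controls, and the average log2 fold change was 0.96 (SE 0.10, edgeR adjusted p = 2.41e-05). Npr1, the receptor of both natriuretic peptides, rose (log2 fold change 0.55), and Corin, the protease that cleaves the atrial peptide precursor, fell (-0.52, SE 0.09). Adra1b, an alpha-adrenergic receptor, fell (log2 fold change -0.60, SE 0.11), and Adrb1, the main cardiac beta-adrenergic receptor, was at 0.09 and was not called.

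Of 27 tested collagen genes, 24 rose and 1 fell, with a median log2 fold change of 1.17 against 0.02 over all genes. Col4a3 and Col4a4, chains of a basement membrane collagen, were among the 10 genes with the smallest p. Col4a3 had 24.8, 22.8, 29.0 and 33.6 CPM in DBA ligated hearts and 11.2, 11.5, 9.26 and 8.24 CPM in DBA controls. Col4a3 had 40.2, 17.3, 34.7 and 24.1 CPM in C57 ligated hearts and 5.63, 8.60, 9.74 and 10.6 CPM in C57 controls. Col4a4 had 28.1, 30.0, 36.4 and 41.2 CPM in DBA ligated hearts and 18.2, 14.4, 12.9 and 14.1 CPM in DBA controls. Col4a4 had 47.4, 22.5, 38.8 and 32.6 CPM in C57 ligated hearts and 13.3, 13.6, 16.2 and 14.3 CPM in C57 controls. Both chains separated all ligated from all control hearts, with log2 fold changes of 1.57 (SE 0.16, edgeR adjusted p = 2.41e-05) for Col4a3 and 1.24 (SE 0.13, edgeR adjusted p = 2.41e-05) for Col4a4. The genes lie head to head on chromosome 1 of mm10, where Col4a4 (minus strand) ends at 82586849 and Col4a3 (plus strand) starts at 82586921, with 71 bases between them. The widely used chains of basement membrane collagen, Col4a1 and Col4a2, rose, with log2 fold changes of 1.17 and 0.99.

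Col1a1, a chain of type I collagen, had lowest, median and highest levels of 329.7, 644 and 836 CPM in ligated hearts and 161, 268 and 479 CPM in control hearts, a log2 fold change of 1.23 (SE 0.17, edgeR adjusted p = 7.62e-05). Its groups did not overlap within a strain but did across strains. Col3a1 rose (log2 fold change 1.2, SE 0.15), as did Col5a2 (1.36, SE 0.15). Col9a2, a chain of a collagen best known from cartilage, had the largest increase among the genes ranked by size (log2 fold change 2.44, SE 0.37, edgeR adjusted p = 1.59e-04), at levels between 0.743 and 5.24 CPM in ligated and between 0.268 and 0.863 CPM in control hearts. The member that fell was Col6a6 (log2 fold change -0.42, SE 0.14), with -0.03 in DBA and -0.83 in C57 hearts, and its call ended under library totals, without C57 ligated 1 and without C57 ligated 3.

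Enzymes that process collagen rose in 16 of 22 cases and none fell (median 0.47). Bmp1, which cleaves the C-terminal propeptide, rose (log2 fold change 0.82, SE 0.09) and separated all 8 ligated from all 8 control hearts. Loxl1, a cross-linking amine oxidase, rose (log2 fold change 1.18, SE 0.13), as did Adamts2, which cleaves the N-terminal propeptide (1.30, SE 0.15). Of 18 matricellular genes, which encode matrix proteins with signalling rather than structural roles, 14 rose and none fell (median 1.03). Postn (periostin) had 404, 317, 533 and 414 CPM in DBA ligated hearts and 154, 146, 169.7 and 290.3 CPM in DBA controls. Postn had 536, 154, 460.0 and 177 CPM in C57 ligated hearts and 70.6, 61.5, 54.5 and 61.2 CPM in C57 controls. Within each strain the groups did not overlap, C57 ligated hearts 1 and 3 stood above 2 and 4, and the log2 fold change was 1.78 (SE 0.28, edgeR adjusted p = 2.18e-04). Sparc, a collagen-binding protein, rose (log2 fold change 1.09, SE 0.11), and its lowest ligated level of 918 CPM exceeded its highest control level of 813 CPM.

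Cilp, a cartilage intermediate layer protein that cardiac fibroblasts also make, was among the 12 largest increases by size. It had 17.4, 17.8, 27.8 and 28.5 CPM in DBA ligated hearts and 8.20, 8.76, 8.56 and 8.02 CPM in DBA controls. Cilp had 179, 53.7, 116 and 73.5 CPM in C57 ligated hearts and 13.9, 14.5, 13.7 and 12.1 CPM in C57 controls. All ligated hearts exceeded all controls, and the average log2 fold change was 2.27 (SE 0.28, edgeR adjusted p = 4.35e-05), with 1.44 in DBA and 2.97 in C57 hearts. The test of that difference gave an edgeR adjusted p of 0.587. Wisp2, a secreted protein of the CCN family, rose (log2 fold change 1.93, SE 0.25).

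Elastic fibre genes rose in 13 of 16 cases and 2 fell (median 0.91). Eln, elastin itself, rose (log2 fold change 1.77, SE 0.23), as did Fbln2 (1.05, SE 0.12) and Ltbp2, a fibrillin-like protein of the fibre (2.11, SE 0.35). Ltbp2 ranged between 15.8 and 64.3 CPM in ligated hearts and between 2.07 and 24.5 CPM in control hearts. Its groups did not overlap within a strain, which the ranking by size required. The members that fell were Ltbp1 (log2 fold change -0.18, SE 0.06), whose call ended under library totals, and Efemp1 (-0.71). Proteoglycans were mixed, with 3 of 11 higher (27.3%, against 19.8% of all genes) and 1 lower (9.09%, against 20.1%). The higher count was 6 without the shallow libraries, or 5 with DBA control 4 alone left out. Vcan (versican) rose (log2 fold change 0.73, SE 0.17), as did Lum (lumican) (0.44, SE 0.11), while Dcn (decorin) was at 0.05 and was not called. Ogn fell (log2 fold change -0.32, SE 0.09), a call that ended with the GC correction, under library totals and without the shallow libraries.

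Matrix proteases and their inhibitors rose in 18 of 24 cases and none fell (median 0.53). Mmp2, a gelatinase, had the smallest p of all genes. It had 244, 269, 326 and 303 CPM in DBA ligated hearts and 155, 160.3, 134 and 134 CPM in DBA controls. Mmp2 had 205, 124, 171 and 162 CPM in C57 ligated hearts and 81.3, 88.2, 79.5 and 88.8 CPM in C57 controls. The strains started from different levels, the groups did not overlap within either, and the log2 fold change was 0.96 in DBA hearts, 0.97 in C57 hearts and 0.97 (SE 0.09, edgeR adjusted p = 2.08e-05) on average. Mmp14, a membrane protease that activates Mmp2, rose (log2 fold change 1.06, SE 0.12). Adamtsl2, a protease-like protein that binds latent TGF-beta binding proteins, rose (log2 fold change 1.76, SE 0.19). Timp1, an inhibitor of metalloproteases, rose (log2 fold change 1.58, SE 0.28), while Timp4 was at 0.18 and Timp3 at -0.35, neither called.

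In TGF-beta signalling 11 of 24 genes rose and 2 fell (median 0.21). Of the ligands, Tgfb3 rose (log2 fold change 0.64, SE 0.07), as did Tgfb1 (0.48), and Tgfb2 was at 0.21, not called. The receptor Tgfbr2 rose (log2 fold change 0.47, SE 0.07), Tgfbr1 was at -0.08 and was not called. Smad4, the shared partner of the receptor-activated Smads, fell (log2 fold change -0.28, SE 0.06), and was at -0.18 without the shallow libraries and at -0.14 under library totals. Smad7, an inhibitory Smad and a target of the pathway, rose (log2 fold change 0.47). Laminins, nidogens and integrins, which tie cells to the basement membrane, rose in 15 of 22 cases and 1 fell (median 0.45). Nid2, Lama4 and Itga5 rose, with log2 fold changes of 0.85 (SE 0.10), 0.61 (SE 0.08) and 0.64 (SE 0.09), and all 8 ligated hearts exceeded all 8 controls for each of them. Exons of Nid2 overlap a gene on the opposite strand over 7.90% of their length. Dag1 (dystroglycan) fell (log2 fold change -0.20, SE 0.07), a call that ended under library totals and when any of 4 single libraries was left out.

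**Figure D3:**
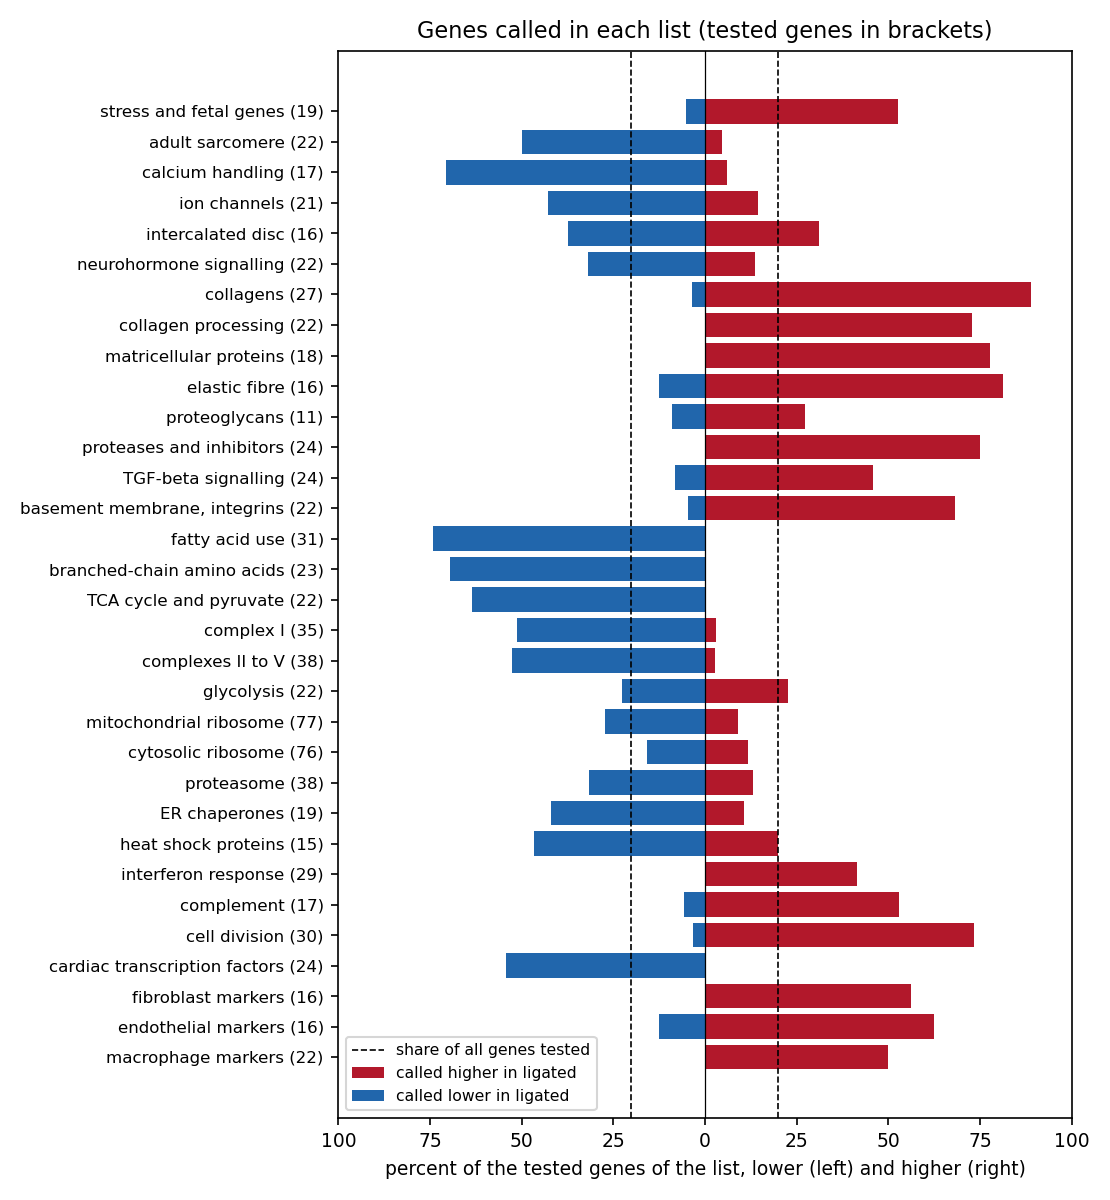
Percent of the tested genes of each list called lower (left) and higher (right) for the average ligation effect, with the number tested in brackets and the shares over all 13504 genes as dashed lines (20.1% lower, 19.8% higher). Matrix lists extend to the right, and lists of fuel use and calcium handling to the left.

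Genes of fatty acid use fell in 23 of 31 cases and none rose, with a median of -0.42. Acsl1, which activates long-chain fatty acids, had lowest, median and highest levels of 1035, 1252 and 1484 CPM in ligated hearts and 1528, 1729 and 2215 CPM in control hearts (log2 fold change -0.49, SE 0.07, edgeR adjusted p = 7.80e-05). Decr1, an auxiliary enzyme of beta-oxidation, fell (log2 fold change -0.58, SE 0.07), as did Etfdh, which passes its electrons to the respiratory chain (-0.51, SE 0.07). For Acsl1, Decr1 and Etfdh every ligated heart lay below every control heart. Targets and regulators in the same list fell as well, with Pdk4, a brake on glucose oxidation, at a log2 fold change of -1.55, Cpt1b, the entry step into mitochondria, at -0.57 and Ppargc1a, a coactivator of mitochondrial genes, at -0.84. Ppara, the receptor that drives these genes, fell (log2 fold change -0.25).

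Breakdown of branched-chain amino acids fell in 16 of 23 genes and none rose (median -0.35). Ppm1k, the phosphatase that switches the pathway's dehydrogenase on, fell (log2 fold change -0.68, SE 0.09), while Bckdk, the kinase that switches it off, was at -0.06 and was not called. Auh and Hsd17b10, later enzymes of the pathway, fell, with log2 fold changes of -0.59 (SE 0.08) and -0.48 (SE 0.07). Of 22 genes of the citric acid cycle and pyruvate oxidation 14 fell and none rose (median -0.20), and 7 fell and 2 rose under library totals. Suclg2, a subunit of succinyl-CoA ligase, fell (-0.47, SE 0.07), as did Pdk2 and Pdk1, kinases that restrain pyruvate dehydrogenase, with log2 fold changes of -0.64 (SE 0.09) and -0.34 (SE 0.06). Under library totals Pdk1 was at a log2 fold change of -0.20. These 3 genes separated all 8 ligated from all 8 control hearts.

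Subunits of the respiratory chain were called lower in part. Complex I fell in 18 of 35 genes and 1 rose (median -0.18), with 11 falling under library totals, and complexes II to V fell in 20 of 38 and 1 rose (median -0.19), with 13 falling under library totals. Ndufs1 fell (log2 fold change -0.40, SE 0.07), but 67.8% of its exon length overlaps a gene on the opposite strand. Ndufb10 and Ndufa12, both subunits of complex I, fell, with log2 fold changes of -0.52 (SE 0.09) and -0.71 (SE 0.13). The complex I member that rose, Ndufa11 (log2 fold change 0.24, SE 0.06), was at -0.02 with the GC correction. Atp5h, a subunit of ATP synthase, fell (log2 fold change -0.70, SE 0.13), and was at -0.46 without the shallow libraries. Sdhd, a membrane anchor of complex II, rose (log2 fold change 0.18, SE 0.07), a call that ended when any of 10 single libraries was left out. Uqcrb of complex III fell (log2 fold change -1.13, SE 0.24), and DBA controls 3 and 4 had 1318 and 1993 CPM of it, and DBA controls 1 and 2 had 811 and 493 CPM. Without the shallow libraries Uqcrb was at a log2 fold change of -0.60, and at -0.51 with the GC correction as well.

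Of 22 glycolysis genes 5 were higher and 5 lower (22.7% each way, near the shares of 19.8% and 20.1% over all genes), and 5 higher and 11 lower with the GC correction. Pfkp, the platelet isoform of phosphofructokinase, rose (log2 fold change 0.76, SE 0.10), as did Pgk1 (0.37, SE 0.09). Without the shallow libraries Pgk1 was at a log2 fold change of 0.24. Exons of Pfkp overlap a gene on the opposite strand, Pitrm1, over 13.2% of their length. Ldhb, the heart form of lactate dehydrogenase, fell (log2 fold change -0.30, SE 0.07), a call that ended under library totals. Of 10 genes of ketone and creatine metabolism 3 rose (30%, against 19.8% of all genes) and 2 fell (20%, against 20.1%). Their median was -0.03, or 0.10 under library totals, and 1 rose when any of 5 single libraries was left out. Ckb, the brain form of creatine kinase, rose (log2 fold change 0.64, SE 0.10), and was at 0.31 with the GC correction. Nmrk2, a kinase that makes NAD from nicotinamide riboside, showed one of the largest increases. It had 47.8, 56.4, 59.2 and 46.1 CPM in DBA ligated hearts and 13.4, 21.4, 18.1 and 16.3 CPM in DBA controls. Nmrk2 had 17.9, 5.72, 11.3 and 8.63 CPM in C57 ligated hearts and 2.41, 2.72, 1.92 and 2.5 CPM in C57 controls. The DBA controls overlapped the C57 ligated hearts, and the groups were apart within each strain, which the ranking required. The average log2 fold change of Nmrk2 was 1.82 (SE 0.19, edgeR adjusted p = 2.41e-05).

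Chaperones of the endoplasmic reticulum fell in 8 of 19 cases and 2 rose (median -0.20), with 5 falling under library totals. Canx (calnexin), which holds nascent glycoproteins, had lowest, median and highest levels of 359.8, 415 and 450.3 CPM in ligated hearts and 539.6, 597 and 654 CPM in control hearts (log2 fold change -0.53, SE 0.06, edgeR adjusted p = 2.60e-05). Dnajb9 and Hsp90b1, further chaperones of that compartment, fell, with log2 fold changes of -0.92 (SE 0.14) and -0.51 (SE 0.09). Heat shock proteins of the cytosol and mitochondria fell in 7 of 15 cases (46.7%, against 20.1% of all genes). Of the 15, 3 rose (20%, against 19.8%), and the median was -0.12, or 0.02 under library totals. Under library totals 4 fell, and none rose with the GC correction or without DBA control 3. Hsp90ab1, Hspd1 and Hspe1 fell, with log2 fold changes of -0.49 (SE 0.10), -0.34 (SE 0.06) and -0.56 (SE 0.12). Without the shallow libraries Dnajb9, Hsp90ab1 and Hspe1 were at log2 fold changes of -0.61, -0.33 and -0.33, and under library totals Hspd1 was at -0.20. Among antioxidant genes 7 of 24 fell (29.2%, against 20.1% of all genes) and 3 rose (12.5%, against 19.8%). Their median was -0.09, or 0.05 under library totals. Cat (catalase), Sod1 and Sod2, which remove peroxide and superoxide, fell, with log2 fold changes of -0.86 (SE 0.19), -0.57 (SE 0.08) and -0.51 (SE 0.10), and Gpx1, a glutathione peroxidase, rose (0.44, SE 0.11). Without the shallow libraries Cat and Sod2 were at log2 fold changes of -0.43 and -0.32, and with the GC correction Gpx1 and Sod2 were at 0.23 and -0.34.

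Ribosomal and proteasomal genes were called higher in 9.09% to 13.2% of cases and lower in 15.8% to 31.6%, against 19.8% and 20.1% of all genes. The mitochondrial ribosome had 7 of 77 genes higher and 21 lower (median -0.03), and 25 higher and 9 lower under library totals (median 0.10). Its higher count was 13 without DBA control 2. The cytosolic ribosome had 9 of 76 higher and 12 lower, and 35 higher and 8 lower under library totals, while 6 were higher and 20 lower with the GC correction. Its higher count was 21 without DBA control 2 and 5 without S42, without DBA control 3 or without C57 control 1. The proteasome had 5 of 38 higher and 12 lower (median -0.06), and 13 higher and 5 lower under library totals (median 0.08). Its higher count was 1 without S41, 2 without DBA control 3, and 3 without S42 or without C57 ligated 2. Psmb10, a subunit of the interferon-induced proteasome, rose (log2 fold change 0.71, SE 0.11) in all 8 ligated against all 8 control hearts.

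Cell division genes rose in 22 of 30 cases and 1 fell (median 0.79). Levels were low. Cdk1, the kinase that starts mitosis, had lowest, median and highest levels of 2.75, 4.21 and 5.47 CPM in ligated hearts and 1.02, 1.46 and 2.24 CPM in control hearts (log2 fold change 1.26, SE 0.18, edgeR adjusted p = 9.50e-05). Spag5, a spindle protein, rose (log2 fold change 1.78, SE 0.28), as did Iqgap3, a scaffold of dividing cells (1.71, SE 0.26). Mki67, the standard proliferation marker, rose (log2 fold change 0.76). Cenpf, a kinetochore protein, fell (log2 fold change -0.89, SE 0.18), a call that ended with the GC correction and without the shallow libraries together. Markers of macrophages and fibroblasts moved in the same direction, as given below, and their part in the rise of division genes was not tested.

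Markers of cell types that the tissue can hold were summed over each list in each library. Fibroblast markers rose in 9 of 16 genes and none fell, and their summed level was 3531 to 5129 CPM in ligated hearts and 2884 to 3671 CPM in control hearts. Pi16 and Meox1, fibroblast genes, rose, with log2 fold changes of 1.14 (SE 0.13) and 1.16 (SE 0.14), while Pdgfra, the marker that defines cardiac fibroblasts, rose (0.24). Dcn and Dpt, which fibroblasts also express, were at a log2 fold change of 0.05 and -0.02, neither called. Macrophage markers rose in 11 of 22 genes and none fell, with a summed level of 456 to 745 CPM in ligated hearts and 375 to 596 CPM in control hearts. Csf1r, the receptor of macrophage colony-stimulating factor, rose (log2 fold change 0.55, SE 0.10), as did Lyz2 (0.51, SE 0.09) and Ms4a7 (0.76, SE 0.13). Trem2, a receptor of lipid-handling macrophages, rose (log2 fold change 1.02), while Lyve1 and Timd4, markers of resident macrophages, were at -0.03 and -0.54 and were not called. Endothelial markers rose in 10 of 16 genes (62.5%, against 19.8% of all genes) and 2 fell (12.5%, against 20.1%). Without the shallow libraries none fell. Within strains, 8 were called higher in DBA hearts and 1 in C57 hearts. Their summed level was 3062 to 3531 CPM in ligated hearts and 2698 to 3400.0 CPM in control hearts. Tie1 rose (log2 fold change 0.74, SE 0.13), as did Pecam1 (0.18), and Emcn fell (-0.37, SE 0.11), a call that ended with the GC correction, under library totals and without the shallow libraries. Mural cell markers rose in 5 of 12 genes (41.7%, against 19.8% of all genes) and 2 fell (16.7%, against 20.1%). The count that fell was 1 when any of 12 single libraries was left out. Their summed level was 4414 to 4915 CPM in ligated hearts and 4449.9 to 5416 CPM in control hearts. The part of cell numbers in the matrix and immune results was not tested.

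Of 5 tested lymphocyte and 3 tested neutrophil markers none was called, and their summed levels stayed under 9 CPM in every library. S100a8 and S100a9, the defining neutrophil genes, lay between 0 and 1.74 CPM. Both tested red cell markers were not called. Ventricular markers fell in 3 of 6 genes (50%, against 20.1% of all genes) and 1 rose (16.7%, against 19.8%). Their summed level was 39559 to 54329 CPM in ligated hearts and 52979 to 71118 CPM in control hearts. Most of that sum was Myh6, at 29287 to 40331 CPM in ligated and 40812 to 58518 CPM in control hearts, so it largely restates the result for Myh6. Atrial markers fell in 5 of 8 genes (62.5%, against 20.1% of all genes) and 2 rose (25%, against 19.8%). Their median log2 fold change was -1.20. Their summed level was 636 to 1217 CPM in ligated hearts and 353 to 919 CPM in control hearts. Much of that sum was Nppa, one of the 2 that rose, at 469 to 1096 CPM in ligated and 102 to 581 CPM in control hearts. The sum therefore does not follow the members that fell. Myl7 fell (log2 fold change -2.40, SE 0.53), with 2.86, 5.68, 4.30 and 3.35 CPM in DBA ligated hearts and 31.5, 12.1, 16 and 33.2 CPM in DBA controls. In C57 mice Myl7 had 2.21, 0.892, 13.2 and 0.659 CPM in ligated hearts and 22.3, 44.8, 15.7 and 1.64 CPM in controls, which overlapped. The count of atrial markers that fell was 3 without DBA control 4 and 2 without the shallow libraries. Adipocyte markers fell in 3 of 4 genes (summed level 0.669 to 5.47 CPM in ligated hearts and 1.74 to 5.85 CPM in control hearts), among them Adipoq (log2 fold change -1.43, SE 0.39), between 0.0637 and 0.811 CPM in ligated and between 0.134 and 1.52 CPM in control hearts. Epicardial and mesothelial markers rose in 3 of 6 genes, in 1 without C57 control 3 and in 1 without the shallow libraries, and their summed level was 7.14 to 26.4 CPM in ligated hearts and 6.12 to 15.2 CPM in control hearts. Msln rose (log2 fold change 2.30, SE 0.78), which was 1.53 without C57 ligated 4 (4.35 CPM, against 0 to 1.08 CPM in the other libraries), and its call ended without C57 control 3. These atrial, fat and surface markers moved with ligation in the dissected samples, and their part in the other results was not tested.

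Interferon response genes rose in 12 of 29 cases and none fell (median 0.32). Within strains, 13 were called higher in DBA hearts (median 0.45) and 1 in C57 hearts (median 0.22). The average count was 19 without the shallow libraries. It was 4 with a replicate block on the 13 numbered libraries, and 6 in those libraries without the block. Oas1a, which senses double-stranded RNA, rose (log2 fold change 0.83, SE 0.16) and separated all 8 ligated from all 8 control hearts. Bst2, a membrane protein that tethers viruses, and Irf7, a transcription factor of the response, rose, with log2 fold changes of 0.95 (SE 0.19) and 0.84 (SE 0.18), with an overlap in C57 hearts. Complement genes rose in 9 of 17 cases and 1 fell (median 0.28). C4b, the central component of the classical pathway, rose (log2 fold change 1.21, SE 0.15, edgeR adjusted p = 4.08e-05), as did Cfb of the alternative pathway (1.16, SE 0.18) and C1qb of the initiating complex (0.53, SE 0.09). With the GC correction C1qb was at a log2 fold change of 0.31. Cd59a, which blocks the membrane attack complex, fell (log2 fold change -0.64, SE 0.14), and was at -0.32 without the shallow libraries. None of 9 genes of antigen presentation by MHC class II was called, with H2-Eb1 at a log2 fold change of 0.49 (SE 0.22), while 2 were called higher without DBA control 2, and 1 without C57 ligated 4 or under library totals. Of 16 S100 and annexin genes 6 rose (10 without the shallow libraries), among them Anxa1, Anxa2 and Anxa3 at a log2 fold change of 0.60, 0.61 and 0.59.

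Transcription factors of the heart fell in 13 of 24 cases and none rose (median -0.23), with 7 falling and 3 rising under library totals. Tbx5, a T-box factor needed for the ventricles and the conduction system, had lowest, median and highest levels of 31.2, 36.6 and 43.3 CPM in ligated hearts and 43.8, 60.2 and 77.4 CPM in control hearts, without overlap (log2 fold change -0.73, SE 0.11, edgeR adjusted p = 1.39e-04). Thrb, a thyroid hormone receptor, fell (log2 fold change -0.42, SE 0.06), as did Hopx, a homeodomain-only cofactor (-0.43, SE 0.07). Mef2a, Gata6 and Hand2 fell, with log2 fold changes of -0.56, -0.51 and -0.53, while Gata4 and Mef2c were at 0.10 and -0.13, neither called. Of 18 clock genes 4 fell (22.2%, against 20.1% of all genes) and 1 rose (5.56%, against 19.8%). The share that fell was near that of all genes, and the share that rose was under it. The median was -0.05 (0.07 under library totals), and 2 fell without the shallow libraries. Nr1d1, the repressor Rev-erb alpha, fell (log2 fold change -0.86, SE 0.19), with -1.26 in DBA and -0.46 in C57 hearts, and was at -0.46 over both strains without the shallow libraries. The hour at which hearts were taken is not given in the sources used here.

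The genes with the largest changes by the size rule included, for increases, Col9a2, Cilp, Ltbp2, Frem1, Acta1, Wisp2, Gdf15, Nppa, Nlrc3, Nmrk2 and Spag5, with log2 fold changes between 1.78 and 2.44. Frem1, an extracellular matrix protein, rose (log2 fold change 2.07, SE 0.35), as did Nlrc3, a regulator of innate immune signalling (1.85, SE 0.22), the last without overlap of the 8 ligated and the 8 control hearts. The decreases included Sbk3, Rnase1, Kcnv2, Penk, Asb15, Cyp2e1, Dhdh, Hmgn5, Amy1, Uqcrb and Usmg5, with log2 fold changes between -2.04 and -1.10.

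**Figure D4:**
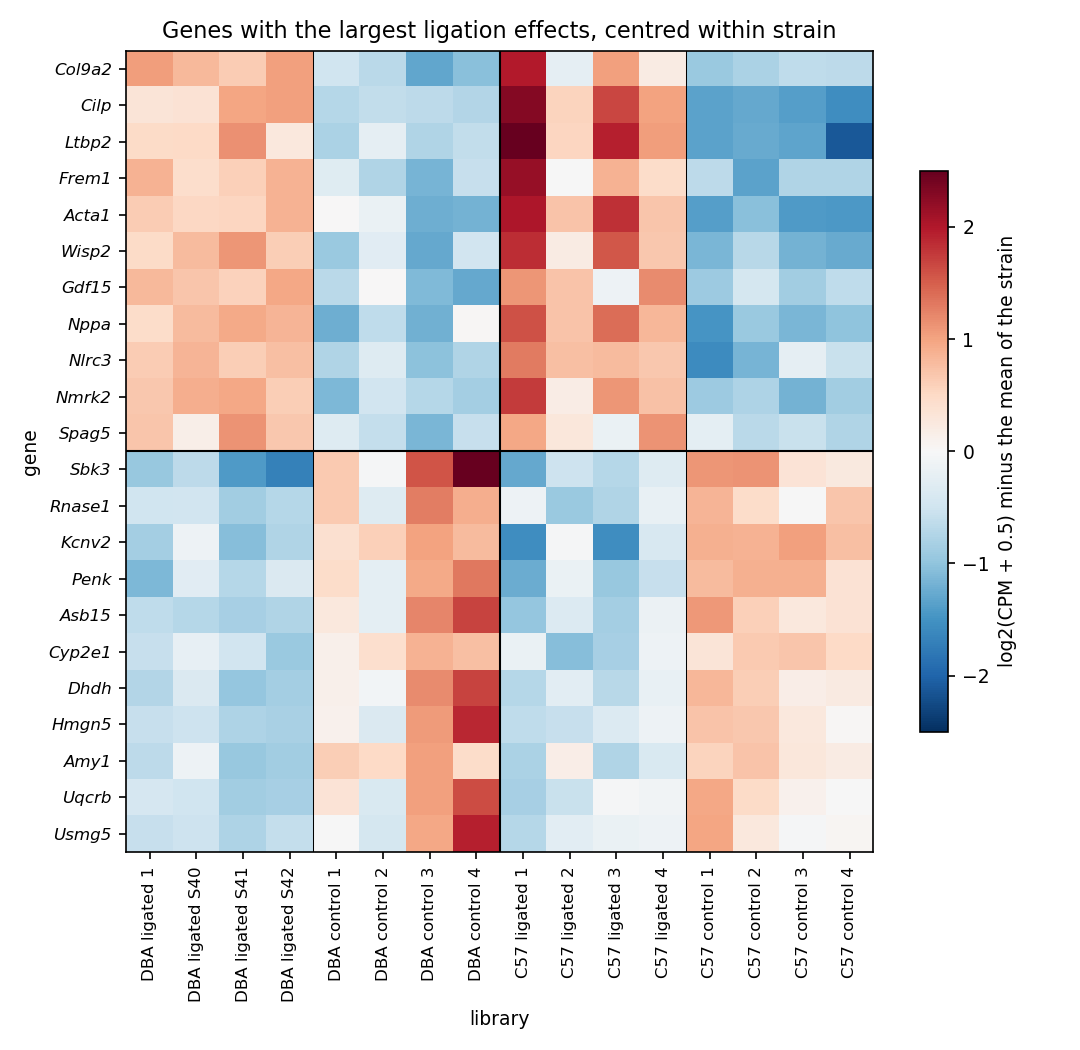
Colour gives log2(CPM + 0.5) minus the mean of the strain for 11 of the 12 largest increases (top) and 11 of the 12 largest decreases (bottom) in the 16 libraries. The rule of choice places the 4 ligated columns of each strain above its 4 control columns (upper rows) or below them (lower rows). In Asb15, Dhdh, Hmgn5, Uqcrb and Usmg5 the highest level is that of DBA control 4.

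Sbk3, a kinase of striated muscle, had 3.52, 4.46, 2.42 and 1.89 CPM in DBA ligated hearts and 11.6, 7.13, 22.4 and 43.6 CPM in DBA controls. Sbk3 had 4.43, 7.88, 6.82 and 9.03 CPM in C57 ligated hearts and 25.1, 25.6, 14.6 and 13.7 CPM in C57 controls. The groups were apart within each strain, which the ranking required, and the DBA controls spread over a wide range. The log2 fold change of Sbk3 was -2.04 (SE 0.33, edgeR adjusted p = 2.72e-04). Asb15, a muscle protein with ankyrin repeats, fell (log2 fold change -1.41, SE 0.22) and separated all ligated from all control hearts. Penk, the precursor of enkephalins, fell (log2 fold change -1.57, SE 0.24), as did Cyp2e1, a cytochrome P450 (-1.36, SE 0.22) at levels under 3.1 CPM. For Asb15, Dhdh, Hmgn5, Uqcrb and Usmg5 the highest of all 16 libraries was DBA control 4, the shallowest library. Usmg5, a small protein of ATP synthase, had 273, 284, 237 and 267 CPM in DBA ligated hearts and 401, 299, 789.6 and 1569 CPM in DBA controls. The log2 fold change of Usmg5 was -1.52 in DBA hearts (edgeR adjusted p = 0.0102) and -0.68 in C57 hearts (edgeR adjusted p = 0.218). Without the 3 shallow libraries the log2 fold changes were -0.87 for Asb15, -0.78 for Dhdh, -0.67 for Hmgn5, -0.60 for Uqcrb and -0.40 for Usmg5, against -1.41, -1.28, -1.23, -1.13 and -1.10 with all libraries.

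By the smallest p, the leading genes after Mmp2 were Pxdn, Fxyd6, Sparc, Bmp1, Col4a3, Nmrk2, Col4a4, Klhdc1 and Ace. Pxdn, a peroxidase that cross-links basement membrane collagen, had lowest, median and highest levels of 149, 207 and 247 CPM in ligated hearts and 90.5, 114 and 136 CPM in control hearts (log2 fold change 0.85, SE 0.09, edgeR adjusted p = 2.41e-05). Klhdc1, a kelch-domain protein and the one decrease in this group, had 23.8, 29.7 and 33.5 CPM in ligated hearts and 41.4, 53.9 and 57.3 CPM in control hearts (log2 fold change -0.83, SE 0.09, edgeR adjusted p = 2.41e-05). Fxyd6, a regulator of the sodium-potassium pump, rose (log2 fold change 0.81, SE 0.08). Their within-strain log2 fold changes were 0.83 in DBA and 0.86 in C57 hearts for Pxdn, -0.74 and -0.91 for Klhdc1, and 0.79 and 0.84 for Fxyd6. For Pxdn and Klhdc1 all 8 ligated hearts lay beyond all 8 controls, and the Fxyd6 groups were apart within each strain, which the ranking required.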

How the data were processed

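Polyadenylated RNA of 16 mouse ventricles was sequenced as 1 library each. The authors deposited counts per gene in 1 table of 13842 genes, whose smallest row total was 45. STAR 2.5.2b, featureCounts of Subread 1.5.1, edgeR and mm10 are named per the submitters' processing notes, and the strand setting is not given in the sources used here. The deposited table holds 16 other per-sample columns, which were not used. Names of 3 DBA ligated columns conflict with the sample numbers, so these libraries have a group but no number (S40, S41 and S42).

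The counts were tested as deposited with edgeR 4.0.16 (limma 3.58.1, R 4.3.3) by robust quasi-likelihood tests of strain plus ligation, after filterByExpr by group and scaling by the trimmed mean of M values, with Benjamini-Hochberg adjustment over 13504 genes. Within-strain effects and their difference came from a model with 1 mean per group. Alternatives were DESeq2 1.42.0, other scaling factors and filters, a GC offset, a replicate block, each library left out, the 3 shallowest control libraries left out together, and tests against a fold of 1.2. On simulated counts with 100 genes changed per fold, the average effect was called for 78% at 1.5-fold and 94% at 2.0-fold. There were 11 false calls among the unchanged genes of the 13504. Changed genes were few and drawn above a minimum level, and the noise was independent between genes, with no shift along GC content. These rates therefore do not carry over to the data, where many genes were called and control libraries differed along GC content. Depth ran from 4922411 to 22010830 counts per library. The labels call the samples biological replicates.

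Named genes were called genes of at least 2 CPM whose groups of 4 did not overlap in either strain (the 12 largest changes each way and the 10 smallest p), up to 3 members of smallest p per list plus 1 of the other direction, and a panel of 10 load and matrix genes. Further members named for their role, called or not, were chosen after their values were seen. Some genes these rules name are not reported here. Members, lists and rules were chosen with earlier results of these data known.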

Additional observations from a re-analysis of the deposited data

Results flagged for a closer look

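Within each group of 4, the level of a named gene in 1 library was set apart when its gap to the nearest of the others, divided by the whole range of the group, exceeded the 95% critical value of Dixon's test. Library totals of each group were checked in the same way. A library was set apart in 32 of 732 groups of 4, or 4.37%, and chance gives about 1 in 20. The 732 cover 182 genes and the library totals in each group, and no library total was set apart. Each value below is a CPM of the library named, with the range of the other 3 libraries of its group in brackets.

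Among the DBA ligated hearts, 10 genes were set apart in this way. DBA ligated 1 stood below the rest of its group for Tbx5 at 31.2 (36.1 to 37.1) and Vegfc at 10.1 (11.5 to 11.7). Library S40 stood above the rest of its group for Cat at 306 (239.9 to 245), Etfdh at 764 (640.2 to 652) and Thrb at 41.5 (32.6 to 33.3). Library S40 stood below the rest of its group for Cdk1 at 2.75 (4.14 to 4.35) and Mki67 at 13.5 (31.7 to 35.2). Library S41 stood above the rest of its group for Col5a2 at 234 (203 to 207). Library S42 stood above the rest of its group for Oas1a at 5.63 (3.72 to 3.93). Library S42 stood below the rest of its group for Trem2 at 6.22 (8.30 to 8.41).

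Among the DBA control hearts, 5 genes were set apart in this way. DBA control 1 stood below the rest of its group for Pdgfra at 93.0 (109 to 111). DBA control 4 stood above the rest of its group for Postn at 290.3 (146 to 169.7) and Vcan at 109.7 (88.0 to 89.9). DBA control 4 stood below the rest of its group for Atp2a2 at 15729 (18167 to 18649) and C1qb at 28.0 (37.4 to 38.3).

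Among the C57 ligated hearts, 9 genes were set apart in this way. C57 ligated 1 stood above the rest of its group for Myh7 at 2759.8 (915 to 969) and Nlrc3 at 4.11 (2.5 to 2.74). C57 ligated 1 stood below the rest of its group for Cryab at 1139 (1412 to 1445) and Ndufb10 at 396 (472 to 486). C57 ligated 3 stood above the rest of its group for Myl7 at 13.2 (0.659 to 2.21), Pgk1 at 324 (251 to 259.6) and Timp3 at 658 (449 to 465). C57 ligated 4 stood below the rest of its group for Irf7 at 12.1 (26.2 to 28.7) and Npr1 at 20.04 (28.8 to 30.5).

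Among the C57 control hearts, 8 genes were set apart in this way. C57 control 1 stood above the rest of its group for Ctnna3 at 103 (82.1 to 84.1), Gata6 at 124 (86.2 to 92), Pdk4 at 3684 (1073 to 1261) and Timd4 at 5.77 (2.66 to 3.06). C57 control 2 stood above the rest of its group for Acta1 at 233 (178 to 184) and Wisp2 at 4.08 (2.58 to 2.82). C57 control 3 stood above the rest of its group for Tgfb1 at 37.5 (36.4 to 36.4). C57 control 4 stood below the rest of its group for Ltbp2 at 2.07 (3.89 to 4.19).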

How the results depend on the processing

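Scaling by library totals gave 4636 genes higher and 1331 lower, and S100a8 (0.0740) and Ckm (0.0878) then changed sign on the log2 scale. Without the 3 shallow libraries 950 genes were called within DBA hearts, 2829 within C57 hearts and 1 for the difference between strains, and DESeq2 called 17 for that difference. With the GC correction Ndufa11 (-0.0210), Jund (-0.178) and S100a8 (0.0308) changed sign, and with the GC correction and without the shallow libraries Jund was at -0.0409, 1008 genes were called within DBA hearts and 2 for the difference. Without a strain term 1775 genes were higher and S100a9 was at -0.0508, and with the relative log expression factors S100a9 was at -0.000199. Against a fold of 1.2, 818 genes were higher and 542 lower. With DBA libraries alone 1648 genes were called. Replicate numbers did not pair the hearts, with correlations of deviations between -0.10 and 0.03 for the 5 numbered pairs. The fit with a replicate block, on the 13 numbered libraries, called 1618 genes higher, 1574 lower and 1 within DBA hearts, and put Ms4a1 at 0.32 and Cd79b at 0.47. The same 13 libraries without the block, a fit added after the data were seen like the 2 combined or single-strain fits, gave 1271 higher, 1213 lower, 0 within DBA hearts and 892 within C57 hearts, and put Ms4a1 at 0.0340, Cd79b at 0.0857 and S100a8 at 0.0407. Leaving out each library in turn gave 2257 to 3172 genes higher, 2296 to 2884 lower, 1318 to 5091 within DBA hearts, 618 to 2854 within C57 hearts and 0 to 0 for the difference, with log2 ranges of -0.23 to 0.11 for S100a8, -0.11 to 0.16 for S100a9 and -0.122 to 0.0137 for Ckm. The cause of these shifts was not tested. Of 138 called genes named by rule, 12 lost the call with the replicate block (among them Uqcrb and Usmg5), and 11 in the same 13 libraries without it. Without a strain term 11 lost it (among them Acta1, C4b and Lyz2), and 21 against a fold of 1.2. The call was lost by 4 with the GC correction, 5 without the shallow libraries, 9 with both and 6 under library totals. Without some single library 5 lost it (Col6a6, Dag1, Itpr1, Msln and Sdhd). Called genes named only for their role were not in this count. Some of them did not stay called under all 29 settings, among them Pecam1, Pdgfra, Ppara, Slc8a1, Ryr2, Efemp1, Cpt1b, Mki67, Trem2, Gata6 and Hand2. With the GC correction and without the shallow libraries Csf1r, Itga5 and Tie1 were at 0.34, 0.41 and 0.42 on the log2 scale. Of 43 list counts of 5 or more, library totals moved 17 by over 1.5 times, the GC correction 2, leaving out the shallow libraries 6, both of these together 10, dropping the strain term 8, the replicate block 15, its 13 libraries without the block 23, the test against a fold of 1.2 33, single libraries 0 to 2 each, and DESeq2, the relative log expression factors and both filters 0. Depth and base composition differ between control libraries and limit small changes and counts near the background share.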

Other observations

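The hearts of the C57 ligated group differed in how far the averaged response went. Over the 245 genes called and at least 2-fold higher, C57 ligated 1 held the highest of the 4 levels in 128 genes (52.2%), C57 ligated 3 in 54 (22%), C57 ligated 4 in 53 (21.6%) and C57 ligated 2 in 10 (4.08%). Over all genes tested the shares were 25.5%, 23.3%, 25.6% and 25.6%. The same libraries entered the estimate by which the genes were chosen, so these shares describe the samples and test nothing. Timp1 had 12.7, 6.39, 16.3 and 7.97 CPM in C57 ligated hearts 1 to 4. In the DBA ligated hearts the highest level of these 245 genes was in S41 for 93 genes (38%), S42 for 76 (31%), library 1 for 54 (22%) and S40 for 22 (8.98%).

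Immediate early genes rose in 6 of 20 cases (30%, against 19.8% of all genes) and none fell. Fosl2 was at a log2 fold change of 0.55 (SE 0.11) and Klf4 at 0.64 (SE 0.15). Without the shallow libraries Klf4 was at a log2 fold change of 0.40, and its call ended with the GC correction as well. Jund rose (log2 fold change 0.30, SE 0.07), and with the GC correction it was at -0.18. Of 19 genes of hypoxia and vessel growth 5 rose (26.3%, against 19.8% of all genes) and 3 fell (15.8%, against 20.1%). Their median was -0.09, or 0.05 under library totals. Vegfc, a growth factor of lymphatic vessels, rose (log2 fold change 0.58, SE 0.09), and all 8 ligated hearts exceeded all 8 controls. Aplnr, the apelin receptor, rose (log2 fold change 0.72, SE 0.12), while Vegfa was at -0.08 and was not called. Lysosomal genes rose in 10 of 22 cases (45.5%, against 19.8% of all genes) and 4 fell (18.2%, against 20.1%). Laptm5 was at a log2 fold change of 0.55 (SE 0.09) and Npc1, a cholesterol exporter, at -0.44 (SE 0.07). Schwann cell markers fell in 3 of 6 cases (50%, against 20.1% of all genes) and 1 rose (16.7%, against 19.8%). With the GC correction none rose. Kcna1, an axonal potassium channel, was at a log2 fold change of -0.93 (SE 0.19). Of 5 mast cell markers Kit rose (log2 fold change 0.67, SE 0.12), and the 4 others were not called. The share that rose was 20%, against 19.8% of all genes. The count was 2 with DESeq2, under library totals, and with the GC correction and without the shallow libraries together. It was also 2 when any of DBA control 2, C57 ligated 3, C57 ligated 4 or C57 control 1 was left out.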
